A study of Drosophila melanogaster with 12 samples.

Results

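The intestines described here came from the control animals of 2 experiments on the mitochondrial pyruvate carrier: a precise excision control and a *myo1A > mCherry-RNAi* control. They were chosen by their labels, as precise excision replicate 2 and *mCherry-RNAi* replicates 1 and 3, which are 3 of the 8 libraries analysed here and of the 12 that the labels describe. Both kinds of control were joined on the gene identifier over 9981 genes, and 8842 genes passed a minimum mean of 10 normalized counts in the 3 libraries. The other experimental arms, *dMPC1* transheterozygous mutants and *myo1A > dMPC1-RNAi* animals, enter as values beside those of the controls. They also enter the fit of 1 alternative, given near the end.

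Both kinds of control are labelled with the strain w1118 and the tissue intestine. Precise excision animals were homozygous for the clean removal of the *P(XP)CG14290[d00809]* element, which leaves *dMPC1* intact, carried no driver, and were labelled wild type and 7 to 10 days old. *mCherry-RNAi* animals carried *myo1A-GAL4*, a driver active in the absorptive enterocytes, *Tub-GAL80ts*, a repressor that holds the driver off until warming, and a *UAS-mCherry-RNAi* transgene against a fluorescent protein that flies lack. The driver stock also held *UAS-GFP*. RNAi was induced for 7 days in adults aged 4 to 5 days. The labels give no sex, and in the study's methods the intestines of each replicate were pooled. Genotype, driver, transgenes, age and rearing differ together between the controls, so their parts in any difference cannot be told apart, and with 1 precise excision library no test can speak for the conditions. Levels are described and no p-value is given.

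The adult fly midgut is a tube of enterocytes that secrete proteases, lipases, glucosidases and lysozymes and take up nutrients. Enteroendocrine cells that release peptides lie among them, and intestinal stem cells replace lost cells. A chitin-rich peritrophic matrix lines the lumen, and visceral muscle with a basement membrane wraps the outside. Damaged or infected enterocytes release the cytokine Unpaired 3, which drives JAK/STAT signalling and stem cell division, so the level of such genes in controls is the level from which each experiment starts.

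The precise excision library held 12737636 reads in genes, and the *mCherry-RNAi* libraries held 14290610 and 14667770. The authors divided gene counts by 1 size factor per library. The authors' mean of each gene is identical in both deposited tables, so both were scaled together. Where 3 values are given below, the first is the precise excision library, the second is *mCherry-RNAi* replicate 1 and the third is replicate 3, all in normalized counts. A difference is the precise excision value minus the mean of both *mCherry-RNAi* values, on log2(normalized count + 1). On this scale the gaps of genes with few reads come out too small. The minimum mean was taken over all 3 libraries, so a gene scarce in one control could pass through the other alone. Counts past 4-fold among scarce genes thus rest in part on this filter. Among genes past the 4-fold rule below, 33 of 135 higher and 32 of 139 lower overlap an exon of a gene on the opposite strand in a later annotation, and whether the counting used strand was not stated. Those named here are *CG32302*, *CR45361*, *CR45822*, *CR45600*, *LysC*, *Npc2c*, *Npc2e*, *tobi*, *AttC*, *PGRP-SD*, *lectin-28C*, *Hsp68*, *Hsp83*, *Act87E*, *Mcm7*, *piwi*, *qin*, *Ugt37a1* and *Gr64f*.

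The controls differed from each other far more than the *mCherry-RNAi* libraries did between themselves. Precise excision lay at least 4-fold above both *mCherry-RNAi* libraries at 135 of 8842 genes (1.53%) and at least 4-fold below both at 139 (1.57%). At 2-fold the counts were 448 (5.07%) and 407 (4.6%). Without *mCherry-RNAi* replicate 3, 230 genes lay at least 4-fold higher and 139 lower. Between the *mCherry-RNAi* libraries, replicate 3 was at least 4-fold above replicate 1 at 29 genes (0.328%) and below it at 2 (0.0226%). The SD of the differences was 0.90 for precise excision against replicate 1, 0.89 against replicate 3, and 0.39 between the *mCherry-RNAi* libraries. The middle of each distribution lay near 0, with medians of −0.01 in all 3 pairs.

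**Figure D1:**
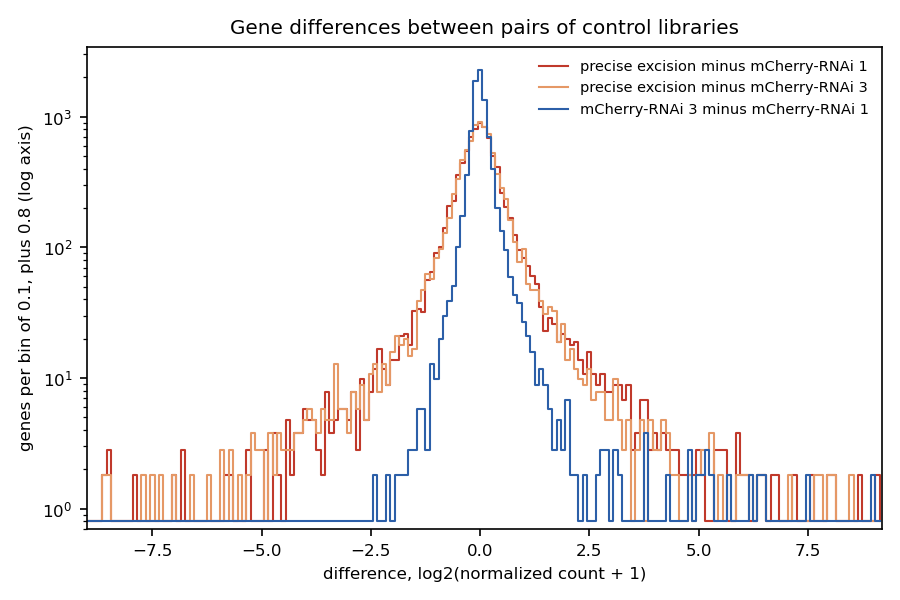
Number of genes (log axis, 0.8 added so that empty bins can be drawn) in bins of 0.1 of the log2 difference between each pair of control libraries, over 8842 genes. Both curves that include the precise excision library are wider than the curve between the *mCherry-RNAi* libraries, with SDs of 0.90 and 0.89 against 0.39, and the latter has a long tail on its right side only.

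Several genes that mark the enterocyte stood at like levels in both controls. *Myo31DF*, the myosin gene whose enhancer the driver is named for, stood at 5879, 5638 and 5684. The value of *nub*, an enterocyte transcription factor, was 2057, 1976 and 1923. *Myo61F*, another brush border myosin, stood at 20693, 19992 and 19713, and *bbg*, a junction protein, at 7996, 8346 and 8140.5. Of 24 enterocyte identity genes measured, 0 were past 4-fold in either direction and 1 was past 2-fold, *CG5404*, at 332 against 876 and 879. Differences in this list ran from −1.40 to 1.02, with 11 genes above both *mCherry-RNAi* libraries and 11 below both. The digestive enzyme genes *betaTry*, *Amy-p* and *mag*, also used as enterocyte markers and given below, stood lower in precise excision. The tissue label thus had its markers in each library.

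The most abundant transcripts were also shared. Ranked by normalized count per kilobase of exon, with exon lengths from a later annotation, the first 7 genes of the precise excision library were the first 7 of the *mCherry-RNAi* mean. *Jon65Aiv*, a Jonah serine protease, came first in precise excision and second in *mCherry-RNAi*, at 432597 and 468290.1 normalized counts per kilobase. *CG12374* held the reverse places, at 367893 and 626335. *yip7*, also a serine protease, *Jon65Aiii*, *alphaTry*, a trypsin, *CG14645* and *mt:lrRNA*, the large mitochondrial ribosomal RNA, followed. Among less abundant ones, *Bace*, an aspartyl protease, was at rank 12 in precise excision and rank 9 in *mCherry-RNAi*, and *Jon99Cii* at ranks 8 and 15. The 20 genes with the highest counts held 23.2% of the normalized total in precise excision and 27.3% and 26.7% in the *mCherry-RNAi* libraries.

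On the high side of precise excision, the widest gaps were at genes of low or no *mCherry-RNAi* signal, among them several chitin-binding genes. *CG10725* stood at 11772 against 44.9 and 50.9, 246-fold the *mCherry-RNAi* mean. *CG17147* stood at 1112 against 1.10 and 3.12. *CG10154*, which lies beside *CG10725* on arm 3L, stood at 410.0 against 0 and 1.04, from 1 read in both *mCherry-RNAi* libraries, a ratio of 768-fold (95% exact interval 137 to 30428). All 3 genes were far apart between the controls, with no *mCherry-RNAi* library above 51 normalized counts. In the mutants *CG17147* stood at 1311 and 1608, and with *dMPC1* RNAi at 19.2, 16.3 and 15.5.

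*CG17147* belongs to a run of neighbours on arm 3L of which 5 of 7 protein-coding genes were at least 4-fold higher in precise excision. *CG7298* stood at 9064 against 399 and 394, *CG6933* at 587 against 26.3 and 28.1 and *CG7017* at 207 against 3.29 and 4.16. *CG17145* stood at 359 against 2.19 and 0, a ratio of 337-fold (95% exact interval 92.5 to 2793), from 2 reads in both *mCherry-RNAi* libraries. The other 2 genes of the run, *CG7290* at 15.1 against 0 and 0 and *CG6996* at 9.68 against 2.19 and 1.04, were under the minimum mean. Of 15 measured genes that the deposited annotation marks as chitin binding, 7 were past 4-fold higher and 1 lower, with a median difference of 1.72 against −0.01 over all genes. That annotation covers only genes the authors listed as higher with *dMPC1* RNAi than with *mCherry-RNAi*, so its members were selected in part for low *mCherry-RNAi* values and nothing is read from their count. The member that went the other way was *CG32302*, at 31.2 against 569 and 803.

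Another list held peritrophic matrix, mucin and chitin-binding genes. Of 23 measured, 0 were past 4-fold in either direction, 2 were past 2-fold higher and 3 lower. *Muc68D*, a mucin, stood at 34278, 60584 and 46147, and *Peritrophin-15a* at 2971, 3399 and 3653. *Cht9*, a chitinase family gene, was lower in precise excision, at 3213 against 10249 and 8628, and *Cht4* was higher, at 932 against 404 and 525.

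**Figure D2:**
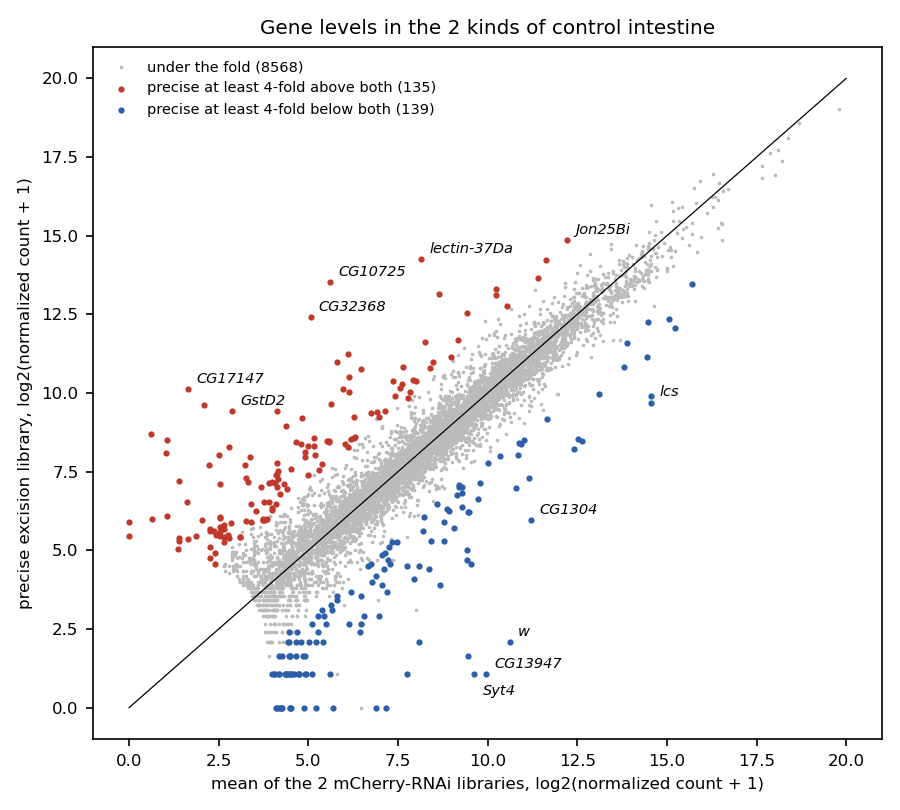
Level of each of 8842 genes in the precise excision library against the mean of the *mCherry-RNAi* libraries, both on log2(normalized count + 1), with the line of equality. Red points are the 135 genes at least 4-fold above both *mCherry-RNAi* libraries and blue points the 139 at least 4-fold below both, and most of the abundant genes at the upper right lie near the line.

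Other genes with wide gaps had varied roles. *CG32368* stood at 5445 against 26.3 and 38.5 and *lectin-37Da*, a galactose-binding lectin, at 19430.4 against 283 and 279, 69.2-fold the *mCherry-RNAi* mean. *CG3264* stood at 794 against 4.38 and 2.08, and *CG8147* at 145 against 2.19 and 1.04. *CG32640* had 0 reads in both *mCherry-RNAi* libraries and stood at 58.1 in precise excision, at least 17.7-fold higher at a floor of 3 reads per library. The noncoding RNA *CR45570* stood at 273 against 0 and 2.08, with mutant values of 419.8 and 546. In *dMPC1* RNAi the levels of *CG32368* were 4042, 3258 and 4418 and in mutants 6638 and 3045, so of the libraries analysed only the *mCherry-RNAi* pair was low.

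Genes on the low side of precise excision included some that were nearly silent there. *Syt4*, a synaptotagmin of vesicle traffic, stood at 1.08 against 768 and 808, and *CG13947* at 1.08 against 767 and 1217, each from 1 read in the precise excision library. Their ratios of *mCherry-RNAi* to precise excision were 733-fold (95% exact interval 131 to 28966) and 928-fold (95% exact interval 166 to 36663). *CG13313*, at 2.15 against 729.9 and 669.5, had 2 reads there and a ratio of 325-fold (95% exact interval 89.7 to 2685). The mutant libraries, which like precise excision carry no driver, held 4.78 and 1.71 for *Syt4*, 10.1 and 6.84 for *CG13947* and 3.19 and 3.42 for *CG13313*, so both genotypes without a driver were below 11. The *dMPC1* RNAi libraries held 237, 213 and 253 for *Syt4*. They held 126, 423 and 496 for *CG13947* and 556, 451 and 459 for *CG13313*.

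A count of 0 in the precise excision library met at least 100 normalized counts in each *mCherry-RNAi* library at 2 noncoding RNAs. *CR45361* stood at 0 against 128 and 155.9, at least 44.0-fold lower in precise excision at a floor of 3 reads per library, and at 0 in every mutant and *dMPC1* RNAi library, so it was seen only in the *mCherry-RNAi* pair. *CR45822* stood at 0 against 113 and 123, at least 36.5-fold lower, with 0.531 and 0 in mutants and 88.7, 90.2 and 84.97 with *dMPC1* RNAi. The first RNA thus marked the *mCherry-RNAi* animals, and the second all libraries with the driver. Of 176 measured noncoding RNAs of the long intergenic class, 14 were past 4-fold lower and 3 higher, against 1.57% and 1.53% of all genes. Lower ones with few or no reads in precise excision passed the minimum mean only through the *mCherry-RNAi* libraries, so nothing is read from this count. *mAChR-B*, a muscarinic acetylcholine receptor, had 0 reads in precise excision against 39.5 and 33.3, at least 11.3-fold lower, and *Lcp1*, a larval cuticle protein gene, 0 against 24.1 and 32.2, at least 8.73-fold lower.

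The white gene, *w*, whose product is a pigment transporter, was also nearly absent from precise excision. It stood at 3.23 against 1588 and 1539.7, from 3 reads in the precise excision library, a ratio of 484-fold (95% exact interval 166 to 2349.7). Mutant libraries held 0.531 and 0 and *dMPC1* RNAi libraries 2197, 2664 and 2812, so the libraries with transgenes stood above 1500 and those without below 4. Transgenes of flies are commonly marked with a small copy of *w*, and some are built with pieces of heat shock protein 70 genes and of *ftz*. *Hsp70Bb* stood at 22.6 against 704 and 776, with 35.6 and 18.8 in mutants and 145, 226 and 252 with *dMPC1* RNAi, and *ftz*, a segmentation gene, at 1.08 against 19.7 and 27.0, with 0 in the other 5 libraries. *Hsp70Bb* has near-identical copies that may share reads, and the part of transgene transcripts in these 3 genes was not tested. Other stock markers were closer: *ry* stood at 672 against 1517 and 1314, *st* at 846 against 1326 and 1049 and *bw*, which overlaps an exon on the opposite strand, at 173 against 111 and 84.2.

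Among abundant genes on the low side, *lcs* stood at 826 against 17037 and 31529.5, 29.4-fold lower in precise excision than the *mCherry-RNAi* mean. It is neighbour on the X chromosome to *CG1678*, at 964 against 17549 and 30471, and *CG42343*, at 1.08 against 17.5 and 25.99, and all 3 were past 4-fold lower. *lcs* and *CG1678* also differed between the *mCherry-RNAi* libraries, by 0.89 and 0.80 on the log2 scale. *CG1304* stood at 61.3 against 2411 and 2339, *CG15534* at 2256 against 22574 and 22226, *CG7542*, which encodes a serine protease, at 5273 against 34639 and 34172 and *CG5107* at 11225 against 52073 and 53460.0. *CG11162* stood at 14.0 against 443 and 377, *CG32581* at 1.08 against 229 and 204, *CR45600* at 3.23 against 239 and 299 and *CR44299* at 0 against 50.4 and 50.9. The lower genes thus included both scarce and highly abundant transcripts of the *mCherry-RNAi* intestine.

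The Jonah proteases differed member by member more than in sum. All 16 Jonah proteases, the chymotrypsin-like enzymes of the midgut, together made up 8.20% of the normalized total in precise excision and 7.34% and 7.24% in *mCherry-RNAi*, and the median difference was 0.32. Of these, 2 were past 4-fold higher and 0 lower, against 1.53% and 1.57% of all genes. *Jon25Bi* stood at 29819 against 4438 and 5109.9 and *Jon66Cii* at 599 against 108 and 141, while *Jon74E* was lower, at 30057 against 98813 and 90985, and *Jon25Biii* at 39277 against 88839 and 86494. The neighbouring genes *Jon25Bi* and *Jon25Biii* thus lay on opposite sides. Members of this family are close copies and may share reads.

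No trypsin named with a Greek letter was past 2-fold, of 10 measured. *betaTry* stood at 116246 against 213042 and 196422 and *thetaTry* at 15135 against 14958 and 14544. Of 20 sugar-digesting enzymes, 0 were past 4-fold higher and 2 lower, against 1.53% and 1.57% of all genes. These were *Mal-B1*, a maltase, at 24.7 against 659 and 712, and *tobi*, a glucosidase gene known as a target of the fly's insulin and glucagon-like signals, at 113 against 603 and 645. *Amy-p*, an amylase, stood at 13064 against 27485 and 25417. Its near copy *Amy-d* stood at 11707 against 2351 and 8639.5, so the *mCherry-RNAi* libraries lay 1.88 apart on the log2 scale, and reads may be split between the copies. Lipid-digesting genes held no member past 2-fold among 13, with the lipase gene *mag* at 13145 against 17947 and 17716.

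Lysozymes, the bacterial wall-digesting enzymes, split by member. *LysX* stood at 3176 against 266 and 342, 10.4-fold the *mCherry-RNAi* mean. *LysS* stood at 373 against 5595 and 6117 and *LysC* at 155 against 2249 and 2275, 15.7-fold and 14.6-fold lower. *LysD*, the most abundant, stood at 26503 against 48914 and 51387 and *LysE* at 7425 against 7062 and 7720.5. The 7 measured members summed to 0.357% of the normalized total in precise excision and 0.514% and 0.552% in *mCherry-RNAi*. The genes are close copies in a cluster, and *LysD*, like *LysC*, overlaps an exon on the opposite strand, so how reads were shared out can move single values. *mwh*, a wing hair polarity gene that neighbours *LysX*, was also higher, at 499 against 23.0 and 16.6.

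The Npc2 family, which binds sterols and lipids, had 3 of 8 measured members past 4-fold higher and 0 lower, against 1.53% and 1.57% of all genes. *Npc2c*, next to *Npc2e* on arm 3R, stood at 312 against 6.58 and 5.20, and *Npc2e* at 1375 against 240.0 and 240.2. *Npc2c* passed the minimum mean only through the precise excision library, so nothing is read from the count of this family. *Npc2a* stood at 922 against 213 and 224, just inside 4-fold. The most abundant member, *Npc2d*, did not share the gap, at 4067 against 3618 and 3954. Immediately outside the fold on the high side lay *CG33926*, at 6539.9 against 1641 and 1607, and on the low side *CG9919*, at 2.15 against 21.9 and 11.4. Immediately inside were *Sox21a*, at 378 against 59.2 and 93.6, and *CG31676*, at 37.7 against 155.6 and 199.6.

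Some inducible immune genes stood higher in precise excision, from low levels. Of 7 measured antimicrobial peptide genes, 4 were past 4-fold higher and 0 lower, against 1.53% and 1.57% of all genes, with a median difference of 3.10, that of *AttD*, which is the same with *AttC* at its lower bound. *Drsl2*, a drosomycin-like peptide, stood at 261 against 2.19 and 7.28 and *AttD*, an attacin, at 88.2 against 7.67 and 11.4. *AttC* had 0 reads in both *mCherry-RNAi* libraries and 43.0 normalized counts in precise excision, at least 13.1-fold higher. *Mtk*, the antifungal metchnikowin, stood at 39.8 against 2.19 and 2.08. *Dpt*, a diptericin, did not share this, at 44.1 against 30.7 and 67.6, nor did *Drs*, drosomycin, at 22.6 against 35.1 and 47.8, and *Def*, defensin, stood at 36.6 against 35.1 and 18.7. The other 6 genes of the list were under the minimum mean. *AttC* and *Mtk* passed it only through the precise excision library, so nothing is read from the count of this list or its median.

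Regulators of the immune deficiency pathway, which reads bacterial peptidoglycan, were mostly near the line: of 24 measured, 1 was past 4-fold higher and 1 lower, against 1.53% and 1.57% of all genes. *PGRP-SD*, a recognition protein, stood at 41.96 against 7.67 and 7.28. *PGRP-SC1a*, an amidase that degrades peptidoglycan and may share reads with its copy, stood at 82.9 against 624 and 626, and *PGRP-SC2* at 3243 against 7181 and 6814. *Rel*, the pathway's transcription factor, stood at 2887 against 2905 and 2974. Immune-induced peptides had 2 of 3 measured members past 4-fold higher, against 1.53% of all genes, *IM2* at 139 against 17.5 and 10.4 and *IM4* at 75.3 against 6.58 and 14.6. Of 8 C-type lectins, 3 were past 4-fold higher and 0 lower, against 1.53% and 1.57% of all genes. Beside *lectin-37Da* these were *lectin-28C*, at 387 against 80.0 and 75.9, and its family member *Lectin-galC1*, at 61.3 against 0 and 6.24. *Lectin-galC1* passed the minimum mean only through the precise excision library, so nothing is read from the count of lectins. It also differed between the *mCherry-RNAi* libraries, by 2.86 on the log2 scale. *lectin-24A* stood at 996 against 1781 and 2099.

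The cytokine route from enterocytes to stem cells stood at a higher level in precise excision for its ligand and some targets. *upd3*, the main Unpaired ligand of the gut, stood at 182 against 11.0 and 22.9, 10.7-fold the *mCherry-RNAi* mean. *Socs36E*, a feedback inhibitor and target, stood at 1472 against 438 and 611, and *Sox21a*, a transcription factor of stem cells and their daughters, at 378 against 59.2 and 93.6. The receptor *dome* stood at 1059.9 against 919.5 and 1043, the kinase *hop* at 482 against 557 and 498 and the transcription factor *Stat92E* at 3609 against 3315 and 3248. Receptor, kinase and transcription factor were thus near equal while the ligand and targets were apart. Of 12 measured pathway genes, 3 were past 4-fold higher and 0 lower, against 1.53% and 1.57% of all genes. These were *upd3* and the stress peptides *TotA*, at 38.7 against 3.29 and 0, and *TotC*, at 43.0 against 6.58 and 3.12. *TotA* and *TotC* are neighbours and close copies, and passed the minimum mean only through the precise excision library.

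For the genes that the study manipulates or reports as readouts, values in the other arms bear on the same scale. The mutant libraries held 195 and 78.7 for *upd3*, 1326 and 829.7 for *Socs36E* and 282 and 142 for *Sox21a*. The *dMPC1* RNAi libraries held 259.8, 292 and 328 for *upd3*. For *Socs36E* they held 1929.9, 2099.6 and 2167, and for *Sox21a* 481, 389.8 and 410.2. Each arm was compared in the study with its own control. The deposited mutant comparison holds the precise excision library and the deposited RNAi comparison the *mCherry-RNAi* pair, with no control library in common. The precise excision value of *upd3* lay between its mutant values, and that of *Sox21a* above both.

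**Figure D3:**
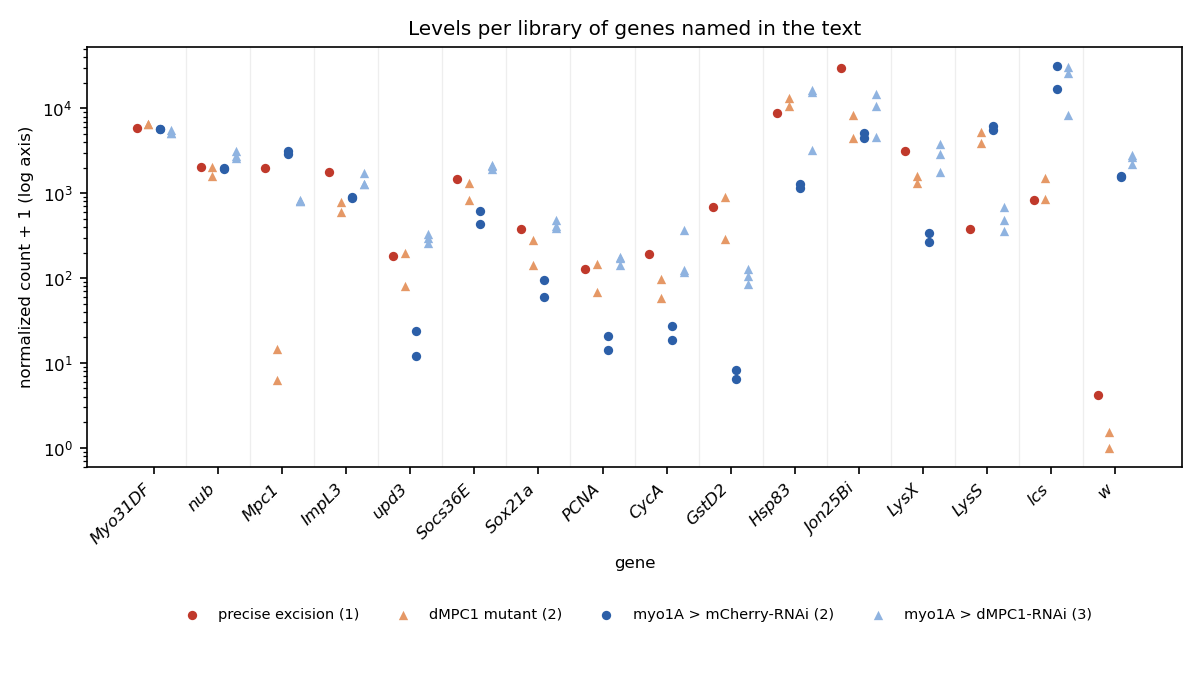
Normalized count + 1 (log axis) of 16 genes in each of the 8 libraries, with 1 point per library, by group. *Myo31DF* and *nub* lie together in both controls, *upd3*, *PCNA*, *CycA*, *GstD2* and *Hsp83* are higher in precise excision than in both *mCherry-RNAi* libraries, and *w* is above 1500 only in the libraries with transgenes.

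Most cell cycle genes stood higher in precise excision. Of 32 measured, 6 were past 4-fold higher and 0 lower, 16 were past 2-fold higher and 0 lower, and the median difference was 1.25, beside 1.53% and 5.07% of all genes on the high side. *RnrL*, the large subunit of ribonucleotide reductase, stood at 321 against 21.9 and 39.5, and *PCNA*, the replication clamp, at 128 against 13.2 and 19.8. *CycA* stood at 189 against 26.3 and 17.7 and *CycB* at 92.5 against 7.67 and 17.7, both mitotic cyclins. *Mcm5*, of the replicative helicase, stood at 58.1 against 6.58 and 12.5 and *Mcm7* at 77.5 against 16.4 and 13.5. Of these, *Mcm5* passed the minimum mean only through the precise excision library. Germ line and egg transcripts went both ways. *dhd*, a thioredoxin of the egg, was higher, at 50.6 against 4.38 and 6.24. So was *yl*, the yolk receptor of the oocyte, at 44.1 against 6.58 and 2.08. *piwi*, which silences transposons in the germ line, was also higher, at 54.9 against 4.38 and 6.24. Past 4-fold lower were *fs(1)Ya*, at 11.8 against 73.4 and 69.7, and *qin*, at 8.61 against 47.1 and 50.9. These genes were chosen after their values were seen. In *dMPC1* RNAi replicate 1 *dhd* stood at 616, against 0.960 and 2.45 in the other 2 libraries of that arm, and *CycB* was high in the same library, at 542, 86.4 and 77.6, as was *CycA*, at 369.5, 123 and 116. In the mutants *dhd* stood at 0 and 1.71, *CycA* at 96.7 and 56.5 and *CycB* at 54.2 and 47.9. The part of germ line cells in the cell cycle levels of the controls was not tested. Genes that are not limited to dividing cells stood close, such as *E2f1* at 1506 against 1324 and 1405 and *His2Av* at 627 against 567 and 663. In bulk intestine, more cells of a type and more RNA per cell cannot be told apart, here and at every list below.

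Progenitor genes differed less than cell cycle genes. Of 18 measured, 1 was past 4-fold higher, *Sox21a*, against 1.53% of all genes, and 1 lower, *cas*, at 0 against 24.1 and 18.7, and the median difference was 0.35. *esg*, a transcription factor that marks stem cells and enteroblasts, stood at 326 against 292 and 299. *Dl*, the Notch ligand of stem cells, stood at 129 against 57.0 and 52.0, and *Sox100B* at 236 against 89.9 and 90.4. Enteroendocrine genes lay on the other side, with 13 of 18 below both *mCherry-RNAi* libraries, where all genes had 3885 of 8842, 0 past 4-fold, 3 past 2-fold lower and a median of −0.51. *Tk*, tachykinin, stood at 789.8 against 1183 and 1212, *AstA*, allatostatin A, at 216 against 434 and 456 and *sNPF* at 37.7 against 114 and 148, whereas *AstC* stood at 1107 against 1123 and 1154. *pros*, the transcription factor of these cells, stood at 103 against 168 and 149.7.

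EGFR and JNK pathway genes had no member past 4-fold, of 11 and 17 measured. *rho*, a protease that releases EGFR ligands, stood at 67.8 against 6.58 and 21.8 and *sty*, a feedback inhibitor, at 922 against 456 and 501. *bsk*, the fly JNK, stood at 870.5 against 678 and 762, and its target *puc*, a phosphatase, at 1412 against 1574 and 1649.9. *Mmp2*, a matrix metalloprotease, stood at 499 against 111 and 152, and *Ets21C*, a stress-induced transcription factor, at 204 against 87.7 and 109.

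Heat shock proteins differed in both directions. Of 16 measured, 5 were past 4-fold higher and 1 lower, against 1.53% and 1.57% of all genes, the lower one being *Hsp70Bb*. *Hsp23*, a small chaperone, stood at 693 against 15.3 and 17.7 and its neighbour *Hsp26* at 352 against 39.5 and 54.1. *Hsp83*, the fly Hsp90, stood at 8887 against 1145 and 1267, 7.37-fold the *mCherry-RNAi* mean, and *DnaJ-1*, a cochaperone, at 1251 against 193 and 195. *Hsp68* stood at 249 against 3.29 and 15.6 and passed the minimum mean only through the precise excision library. All 5 are known as heat-inducible. The constitutive *Hsc70-4* stood at 28069.5 against 30858 and 31221 and the heat shock factor *Hsf* at 661 against 663 and 648. The other member past 2-fold lower was *Hsp67Bc*, at 3.23 against 19.7 and 14.6. The *dMPC1* RNAi animals, warmed like the *mCherry-RNAi* ones to relieve *GAL80ts*, held 764, 2874 and 3933 for *Hsp23* and 3259.7, 16546 and 15616 for *Hsp83*, and the mutants held 939.6 and 262 and 13186 and 10704. Of the 8 libraries the *mCherry-RNAi* pair was thus the lowest for both genes.

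Several glutathione transferases, which conjugate toxins to glutathione, stood higher in precise excision. Of 31 measured, 6 were past 4-fold higher and 0 lower, against 1.53% and 1.57% of all genes. At 2-fold 13 were higher and 1 lower, against 5.07% and 4.6%, and the median was 0.82. All 6 lie in the *GstD* cluster on arm 3R. *GstD2* stood at 691 against 5.48 and 7.28, 108-fold the *mCherry-RNAi* mean, *GstD7* at 346 against 25.2 and 22.9 and *GstD8* at 279.8 against 26.3 and 32.2. *GstD10* stood at 676 against 119 and 122, *GstD5* at 314 against 69.0 and 66.5 and *GstD4* at 40.9 against 2.19 and 1.04. The cluster thus differed as a block, and *GstD1*, its most abundant member, stood at 10650.2 against 4353 and 4849, past 2-fold. These genes are close copies and may share reads. The mutant libraries held 894 and 287 for *GstD2*, and the *dMPC1* RNAi libraries 83.2, 104 and 127.

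Cytochrome P450 enzymes, of which 71 were measured, had 3 past 4-fold higher and 1 lower, close to the 1.53% and 1.57% of all genes, with a median of 0.23. *Cyp6a2*, linked to insecticide resistance, stood at 598 against 84.4 and 68.6, *Cyp6a8* at 371 against 80.0 and 64.5 and *Cyp12d1-p* at 91.5 against 15.3 and 12.5, while *Cyp4e3* stood at 341 against 1814 and 1923. *Cyp6g1*, known for DDT resistance, stood at 3349.6 against 2485 and 2042. UDP-glycosyltransferases had 2 of 16 past 4-fold higher, against 1.53% of all genes, *Ugt37a1* at 659 against 107 and 104 and *Ugt86Di* at 111 against 18.6 and 16.6, and 1 lower, *Ugt86Dd*, at 257 against 1373 and 1212. Redox defence genes had none of 18 past 4-fold, with *Cat*, catalase, at 7093 against 8849 and 8531.

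None of the pyruvate genes at the centre of the study was past 2-fold in the controls. *Mpc1*, the files' name for *dMPC1* (FBgn0038662), stood at 1997, 3114 and 2936, a difference of −0.60. The mutant libraries held 5.31 and 13.7 and the *dMPC1* RNAi libraries 841, 803 and 819.5, far from both kinds of control. *CG9399*, the other carrier subunit, stood at 1486, 1799.6 and 1645. *l(1)G0334* and *CG5261*, subunits of pyruvate dehydrogenase, stood at 3913, 3649.5 and 3593 and at 3329, 3237 and 2906. *ImpL3*, lactate dehydrogenase, stood at 1782, 870.2 and 904, and *CG1516*, pyruvate carboxylase, at 5704, 9378 and 8844. Of 17 genes of the carrier and pyruvate fate, 0 were past 2-fold, and the same held for 17 of the TCA cycle and 16 of glycolysis. *ImpL3* had the highest difference of the first list, 1.005, but was not 2-fold above both *mCherry-RNAi* libraries.

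Of the 16 glycolysis genes, 10 lay above both *mCherry-RNAi* libraries and 6 below both, where all genes had 3748 and 3885 of 8842, and the median was 0.40. *Pgi* stood at 3386, 2013 and 1919, *Pfk*, phosphofructokinase, at 1507, 919.5 and 898 and *Gapdh2* at 11009, 6956 and 6764, whereas *Hex-A*, a hexokinase, stood at 2693, 3006 and 2934. Among genes of sugar sensing and lipogenesis 0 of 22 were past 4-fold and 3 were past 2-fold lower. *Thor*, the translation inhibitor 4E-BP, stood at 3294 against 10837 and 12148, 3.49-fold lower than the *mCherry-RNAi* mean, and *sug*, a sugar-sensing transcription factor, at 2898 against 4688 and 4696. *Lsd-2*, a lipid droplet protein, stood at 6453 against 12462 and 12068.

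Cytosolic ribosomal protein genes lay together on the low side by a small amount. Of 85 measured, 83 lay below both *mCherry-RNAi* libraries, where all genes had 3885 of 8842, with a median of −0.58 and 2 past 2-fold lower, and their share of the normalized total was 6.10% against 8.34% and 8.34%. *RpL3* stood at 20505 against 36573 and 34349 and *RpL5* at 16865 against 37277 and 36099. The exception past 4-fold was *RpS5b*, a paralog expressed in the germ line, at 44.1 against 4.38 and 7.28. Between the *mCherry-RNAi* libraries the median was −0.03. Mitochondrial ribosomal proteins held 0 of 72 past 2-fold, and proteasome subunits 0 of 32 past 2-fold other than *Rpt6R*, at 1.08 against 16.4 and 17.7. Vacuolar proton pump subunits, which acidify the gut and the tubule, lay above both *mCherry-RNAi* libraries at 20 of 21 genes, where all genes had 3748 of 8842, by a median of 0.25, as *Vha16-1* at 68089 against 57495 and 57731. *VhaAC39-2* alone was past 4-fold, at 43.0 against 2.19 and 3.12.

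Transcripts of other cell types that a dissected intestine can hold also stood apart. Hemocyte genes, which mark the blood cells, summed to 3469 normalized counts in precise excision and 1642 and 2056 in *mCherry-RNAi*. Of 11 measured, 3 were past 4-fold higher and 0 lower, against 1.53% and 1.57% of all genes, and 7 were past 2-fold higher and 1 lower, against 5.07% and 4.6%, with a median of 2.16. *Hml*, hemolectin, stood at 574 against 73.4 and 159, *NimC1*, a phagocytic receptor, at 153 against 9.86 and 23.9 and *eater* at 40.9 against 5.48 and 10.4. *NimC4* stood at 57.0 against 0 and 12.5 and *NimC2* at 22.6 against 4.38 and 4.16. *eater*, *NimC4* and *NimC2* passed the minimum mean only through the precise excision library, so nothing is read from the counts of this list or its median. *PPO1*, a prophenoloxidase, stood at 333.6 against 44.9 and 133. Hemocyte genes also differed between the *mCherry-RNAi* libraries, by a median of 0.81. Hemocytes make antimicrobial peptides and *upd3* in flies, and the part of these cells in those genes was not tested.

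Most muscle and matrix genes stood higher in precise excision as well. The 27 visceral muscle genes summed to 49468 against 31593 and 34602, and the median was 0.46. Of these, 22 lay above both *mCherry-RNAi* libraries and 3 below both, where all genes had 3748 and 3885 of 8842. At 2-fold 5 were higher and 2 lower, against 5.07% and 4.6% of all genes, and the lower ones were *Act79B*, an actin, at 23.7 against 87.7 and 73.8 and *Act88F*, the flight muscle actin, at 14.0 against 34.0 and 40.5. *Act87E*, an actin, stood at 1342 against 236 and 271, past 4-fold, *Act57B* at 6490.4 against 2568 and 3035 and *Mhc*, myosin heavy chain, at 5263 against 3937 and 4517. Basement membrane genes had 3 of 9 past 2-fold higher, against 5.07% of all genes: *Cg25C* and *vkg*, the collagen IV chains, at 1499.9 against 290.4 and 427 and 950.1 against 229 and 259.9, and *BM-40-SPARC* at 444 against 182 and 193, while *trol*, perlecan, stood at 3735 against 3766 and 4079.6. Fly collagen IV is made by hemocytes and fat body. The collagen chains and *LanB1* are on both the muscle and the matrix list, and *Pxn* is on both the matrix and the hemocyte list.

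Markers of tubule and fat body were present in all 3 libraries, and the eggshell genes of the egg chamber were near 0. Malpighian tubule genes had 0 of 20 past 4-fold and summed to 57797 against 63286 and 54734, with *Uro*, urate oxidase, at 4425 against 4880.3 and 5396. Fat body genes summed to 56237 against 45418 and 37970.2, mostly yolk protein transcripts. *Yp1* stood at 18726 against 16002 and 11804 and *Yp3* at 10093 against 6189 and 4749, and of 15 measured 0 were past 4-fold higher and 1, *Lsp1gamma*, lower, at 11.8 against 165 and 123. Of 32 egg chamber genes found, 5 passed the minimum mean, with 0 past 4-fold, 1 past 2-fold higher and a median of 0.51, and all 32 summed to 237 against 133 and 157. The 1 past 2-fold was *otu*, which acts in oogenesis, at 34.4 against 14.2 and 7.28. Outside the list *dhd*, *yl* and *piwi* were past 4-fold higher, and *fs(1)Ya* and *qin* past 4-fold lower. *Cp36*, a chorion protein, stood at 4.30 against 0 and 5.20, *Vm26Aa*, of the vitelline membrane, at 5.38 against 1.10 and 1.04 and *osk*, a germ plasm gene, at 11.8 against 1.10 and 4.16. The part of these tissues in the differences was not tested.

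**Figure D4:**
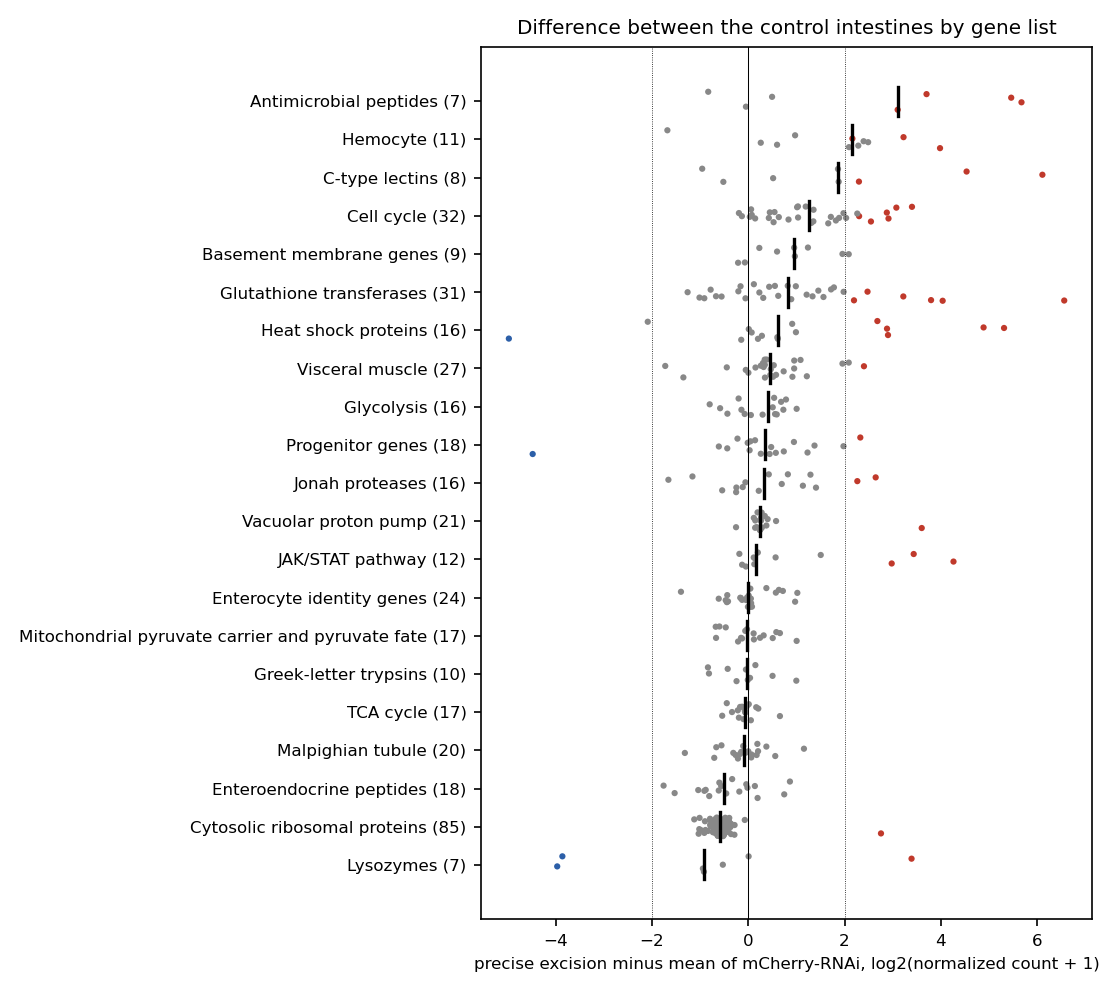
Difference between the precise excision library and the *mCherry-RNAi* mean on log2(normalized count + 1) for the measured members of 21 gene lists, with 1 point per gene, the number measured in brackets and a bar at the list's median. Red and blue points are past 4-fold above or below both *mCherry-RNAi* libraries, and dotted lines lie at differences of 2 and −2. The antimicrobial, hemocyte and lectin medians lie furthest right. Nothing is read from them, because these lists hold members that passed the minimum mean only through the precise excision library. Ribosomal protein genes, apart from *RpS5b*, form a tight group left of 0.

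The *mCherry-RNAi* libraries themselves were not alike at every gene. Of the 31 genes at least 4-fold apart between them, 29 were higher in replicate 3. *CG42704* stood at 0 in replicate 1 and 514 in replicate 3, with 7.53 in precise excision. *Cyp4g1*, a P450 of the oenocytes that make cuticular lipids, stood at 71.2 and 1027, with 1459 in precise excision, so for this gene the precise excision library lay nearer to replicate 3. *eloF*, a fatty acid elongase, stood at 45.2, 1.10 and 28.1 and *Fad2*, a desaturase, at 122, 5.48 and 57.2 in the same order, precise excision first. *PGRP-SB1* stood at 8.61, 15.3 and 110.2 and *NimC4* at 57.0, 0 and 12.5. The 2 genes higher in replicate 1 were *TotA*, at 38.7, 3.29 and 0, and *snRNA:7SK*, at 16.1, 15.3 and 2.08.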

How the data were processed

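Intestinal RNA of 3 control libraries was compared, beside 5 libraries of the mutant and *dMPC1* RNAi arms, and the other 4 labelled libraries were not analysed here. The labels number 3 replicates per group, another count than the study's methods give for the RNAi experiment. The submitters' processing notes name Novoalign, DESeq and dm3 for all libraries, and the methods name 50-cycle single reads and USeq for the RNAi experiment. No source used here states versions, counting options or whether strand was used. The deposited signal is the authors' gene count over a size factor, and the deposited log2 fold changes and p-values of the authors' comparisons, on a log2 or −log10 scale, were not used. Whole reads were recovered by dividing each library by its smallest step, and 100% of values came out whole within 0.001 of a read. Intervals and floors cover counting error only.

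A gene was past the fold when the precise excision value lay at least 4-fold above the higher, or below the lower, of both *mCherry-RNAi* values on log2(normalized count + 1), among genes whose mean was 10 or more. Named genes were the 15 widest differences each way, the 10 most abundant per kilobase in each control, up to 6 members past the fold and 4 most abundant of each list, genes of the study's genetics, stock markers, and genes at 0 in one control with at least 100 in the other. Others, among them genes just inside and outside the fold, neighbours of runs and further list members, were chosen after their values were seen. The gene lists (46, plus 5 added later and the authors' chitin-binding annotation), the libraries and the rules were chosen with earlier results of these data known. Symbols, neighbours, exon lengths and strand overlaps came from Ensembl 115 on another build than dm3 (9791 of 9981 genes matched), so no coordinates are given. Alternatives were other scalings, pseudocounts, filters and folds, each *mCherry-RNAi* library left out, and an edgeR 4.0.16 quasi-likelihood test on the recovered reads, with DESeq2 1.42.0 size factors as another scaling, in R 4.3.3. The size rule and edgeR were tested on simulated data.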

Additional observations from a re-analysis of the deposited data

How the results depend on the processing

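The count of genes higher in precise excision was 135 and of genes lower 139. With a 2-fold rule the counts were 448 and 407, with an 8-fold rule 54 and 67, and with a minimum mean of 50 they were 85 and 78. With a pseudocount of 10 there were 96 higher and 70 lower. The edgeR test on reads (9563 genes, threshold of 0.01 on the adjusted p, log2 fold of 2) gave 104 higher and 67 lower. The edgeR test was fitted on all 8 libraries, so its estimate of spread rests on the mutant and *dMPC1* RNAi replicates as well. It compares these libraries, not the conditions. Leaving out 1 *mCherry-RNAi* library gave 170 to 230 higher, the latter without replicate 3, and 139 to 162 lower. TMM scaling and DESeq2 size factors each gave 136 and 139, scaling by total reads 165 and 125, and no filter 202 and 174. Chosen after seeing the data, protein-coding genes alone gave 131 and 121, and leaving out the lists of other tissues 132 and 137. Scaling by total reads moved the median of all genes to 0.17 on the log2 scale from −0.01, so lists with medians near 0 (TCA cycle, pyruvate fate, Malpighian tubule, trypsins, sugar digestion, sugar sensing, IMD regulators, clock, copper and iron cells, mitochondrial ribosomal proteins) changed sign under it and their directions are not read. Over all alternatives the median ran from 0.89 to 1.42 for cell cycle genes and −0.60 to −0.41 for cytosolic ribosomal proteins. It ran from 2.04 to 3.36 for antimicrobial peptides and 1.52 to 2.69 for hemocyte genes. These latter lists hold members that passed the minimum mean only through the precise excision library, so their medians are not read. The cause of these moves was not tested, apart from those that follow from a stricter or looser rule. No named gene past the fold changed sign under any alternative run. No paired analysis was possible, because there was 1 precise excision library and the labels name no pairing between the controls. Depth limits genes with 1 to 3 reads in a control, whose ratios carry wide intervals.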

Other observations

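Clock genes were near the line apart from *tim*, the light-sensitive partner of Period, at 2255 against 7658 and 7351 normalized counts in precise excision, *mCherry-RNAi* replicate 1 and replicate 3. *per* stood at 226 against 339.7 and 378 and *vri* at 1036 against 1455 and 1537, both on the same side, while *Clk*, the activator of these genes, stood at 544 against 585 and 643 and *cry*, a photoreceptor, at 1727 against 1595 and 1445. The labels give no time of day for dissection. *tim* overlaps an exon on the opposite strand.

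Of 6 measured taste receptors, *Gr98a* was the most abundant, at 393 against 251 and 184, and the others were below 50. *Gr64f*, a sugar receptor, stood at 0 against 9.86 and 25.99, *Gr64a* at 2.15 against 14.2 and 19.8 and *Gr47b* at 0 against 20.8 and 14.6. These 3 were past 4-fold lower in precise excision and 0 higher, against 1.57% and 1.53% of all genes. They passed the minimum mean only through the *mCherry-RNAi* libraries, and of 10 taste receptors found only 6 passed it, so nothing is read from their count.

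Several genes that were high in *mCherry-RNAi* replicate 3 and at or near 0 in replicate 1 were also uneven between replicates of the other arms. *CG32834* stood at 5.38, 1.10 and 182, with 398, 1.92 and 1.63 in the *dMPC1* RNAi libraries and 1.06 and 455 in the mutants. *CG43090* stood at 9.68, 2.19 and 241, with 519.5, 1.92 and 4.09 and 2.66 and 1372. *CG9897* stood at 1.08, 0 and 92.5, with 134, 0 and 1.63 and 0.531 and 379.8. In all 3 genes, *mCherry-RNAi* replicate 3, *dMPC1* RNAi replicate 1 and mutant replicate 2 were the high libraries, and the precise excision library was low. *CG42704* was high in *mCherry-RNAi* replicate 3 alone, with 0.915, 0 and 0 in the *dMPC1* RNAi libraries and 3.19 and 0 in the mutants. The labels name no source for this unevenness.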
